A study of Homo sapiens with 12 samples.

Results

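The S100 genes encode small calcium-binding proteins, and the 10 members described here were S100A2, S100A4, S100A6, S100A8, S100A9, S100A10, S100A11, S100A14, S100A16 and S100P. They were taken by gene symbol from an expression table of 58735 genes, by a rule that puts no threshold on measured values. Messenger RNA had been sequenced from TFK1, an established human cholangiocarcinoma (bile duct cancer) cell line of wild-type genotype, and the study asked how nab-paclitaxel makes these cells more sensitive to radiotherapy. Each of the 4 groups had 3 labelled biological replicates. Control cells were left untreated, the radiation group received 6 Gy, the drug group received nab-paclitaxel at 1.62 ng/ml, and the combination received both at these doses. RNA from every group was taken after 24 h, all groups carry the same wild-type label, and 1 cell line is the only model. Nab-paclitaxel is paclitaxel, a drug that stabilises microtubules, bound to albumin. Nothing in the labels says how the replicate cultures were set up, so p-values measure the spread between these libraries.

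An S100 protein carries a pair of EF-hand loops that hold calcium, and most work as dimers. On binding calcium they expose a surface that docks onto partner proteins such as annexins, myosin heavy chain and the cytoskeletal regulator IQGAP1, and some are also secreted and bind receptors such as RAGE (the AGER gene) and TLR4. Most of the family lies side by side in the epidermal differentiation region of chromosome 1. In bile duct and other epithelia, S100A6, S100A11 and S100P are known for being raised in carcinomas, whereas S100A8 and S100A9 together form calprotectin, a major protein of neutrophils and monocytes.

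In hg38, 9 of the 10 members lay on chromosome 1 between 151982915 and 153616986, a span of 1634.0 kb, and S100P lay on chromosome 4 (6693069 to 6697170). All 10 are protein-coding genes. The members on which the results turn were S100A6 (ENSG00000197956, chromosome 1, 153534599 to 153536244), S100A10 (ENSG00000197747, 151982915 to 151994390), S100A11 (ENSG00000163191, 152032506 to 152047907) and S100A16 (ENSG00000188643, 153606886 to 153613145), all on the minus strand. The 250 bases before the transcription start of these 4 genes are shown because all 4 rose in the combination. S100A16 has 2 RefSeq starts, and the windows of both are given. S100A4 (ENSG00000196154, 153543613 to 153550136, minus strand) is shown beside them as a neighbour with no rise past the threshold in any comparison. S100A14 and S100A2 had no such rise either, and their windows are not printed. The sequences are from RefSeq (GRCh38.p14), written 5′ to 3′ along the gene, and capitals mark a GC box (GGGCGG) or, in S100A4, a TATA box (TATAAA) or, in the first S100A16 window, a TEAD site (GGAATG).
S100A6, chr1:153535992-153536241, minus strand: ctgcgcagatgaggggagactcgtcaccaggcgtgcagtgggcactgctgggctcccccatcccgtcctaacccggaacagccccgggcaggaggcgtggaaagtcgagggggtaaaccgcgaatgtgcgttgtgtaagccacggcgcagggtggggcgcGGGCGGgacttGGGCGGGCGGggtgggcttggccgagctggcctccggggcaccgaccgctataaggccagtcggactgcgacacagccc
S100A10, chr1:151993860-151994109, minus strand: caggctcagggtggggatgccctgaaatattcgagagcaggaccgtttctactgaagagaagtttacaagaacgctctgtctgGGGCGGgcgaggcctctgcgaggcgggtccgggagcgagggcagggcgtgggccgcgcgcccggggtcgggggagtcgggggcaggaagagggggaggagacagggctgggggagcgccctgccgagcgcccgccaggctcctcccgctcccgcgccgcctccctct
S100A11, chr1:152037005-152037254, minus strand: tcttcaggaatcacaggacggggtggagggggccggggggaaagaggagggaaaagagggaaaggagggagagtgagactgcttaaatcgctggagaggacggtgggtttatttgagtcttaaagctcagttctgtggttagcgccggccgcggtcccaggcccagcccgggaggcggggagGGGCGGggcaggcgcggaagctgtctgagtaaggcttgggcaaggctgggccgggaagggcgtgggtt
S100A16, first window, chr1:153613138-153613387, minus strand: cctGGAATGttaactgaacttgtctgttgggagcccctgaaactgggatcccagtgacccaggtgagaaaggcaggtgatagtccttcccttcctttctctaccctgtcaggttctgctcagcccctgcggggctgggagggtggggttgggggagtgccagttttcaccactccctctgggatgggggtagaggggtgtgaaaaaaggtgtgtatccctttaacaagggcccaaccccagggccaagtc
S100A16, second window, chr1:153609356-153609605, minus strand: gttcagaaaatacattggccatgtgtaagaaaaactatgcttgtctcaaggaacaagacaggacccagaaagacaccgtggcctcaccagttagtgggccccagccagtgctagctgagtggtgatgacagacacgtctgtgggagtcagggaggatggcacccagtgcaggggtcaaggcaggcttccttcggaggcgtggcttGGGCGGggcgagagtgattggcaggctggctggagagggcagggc
S100A4, chr1:153545807-153546056, minus strand: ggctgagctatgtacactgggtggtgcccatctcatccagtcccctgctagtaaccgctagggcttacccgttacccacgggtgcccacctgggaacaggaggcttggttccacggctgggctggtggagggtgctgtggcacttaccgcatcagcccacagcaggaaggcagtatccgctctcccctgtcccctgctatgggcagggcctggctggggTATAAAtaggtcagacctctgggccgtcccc

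RefSeq gave 14 such windows for the 10 members, since some genes have several starts. Each window was searched on both strands for the GC box, the TATA box, an AP-1 site (TGANTCA), an antioxidant response element (TGACNNNGC) and a TEAD site (GGAATG). The GC box was present in S100A6 (at 90 to 85, 79 to 74 and 75 to 70 bases before the start, the last pair overlapping), S100A10 (167 to 162), S100A11 (68 to 63), the second S100A16 window (45 to 40) and S100A9, and absent from the first S100A16 window. It is common, being found in 42.6% of the 35116 RefSeq windows of this length. S100A4, S100A8, S100A9 and S100P held the TATA box, which 10.7% of windows hold. AP-1 letters occurred in S100A2 (6.57% of windows), antioxidant response letters in S100A14 (10.9%), and TEAD letters in the first S100A16 window (11.9%). A match shows only that these letters are in the window, and which start TFK1 cells use was not measured. The first bases after the start behind the second S100A16 window, the one with the GC box, occurred in no GENCODE 29 transcript of the gene. Those after the other 13 of the 14 starts occurred somewhere in a transcript of their gene. A match can lie inside a transcript, so whether a transcript begins at any of these starts was not tested.

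Expression was deposited as FPKM, a fragment count scaled for gene length and sequencing depth. For each member the length was that of all its GENCODE 29 exons together, which need not be that of the transcript in use. Levels of different genes, with their ranks and ratios, therefore compare only roughly, whereas 1 gene can be compared between groups. The libraries held 14840283 to 17992242 fragments. The most expressed members were therefore well covered, with 2402 to 7209 fragments for S100A6 in each library and 854 to 1775 for S100A11. S100A2, which was also tested, had only 18 to 49. Testing required an average of 1 FPKM or more across the 12 libraries, which 13609 genes met. Values after ± are SD for FPKM and SE for log2 fold changes, with n = 3 libraries per group. Fold changes were fitted with limma on log2(FPKM + 1), which understates the change of low genes. A gene is said to rise or fall where its Benjamini-Hochberg adjusted p was under 0.05. On the second principal component of all tested genes, control 2 (30.6), nab-paclitaxel 1 (28.6) and combination 2 (3.64) each stood highest in their group, and results that depend on these 3 libraries are also given without them.

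TFK1 carried the epithelial identity its label gives. Of 9 epithelial and biliary markers 6 averaged at least 1 FPKM over the libraries (KRT8, KRT18, KRT19, EPCAM, CDH1 and SOX9), and KRT7 (0.533) and MUC1 (0.296) were among those that did not. The summed level of that list was 719 to 905 FPKM in control, 1105 to 1182 in irradiated cells, 1184 to 1332 with the drug and 1346 to 1702 with both. KRT19, a keratin of bile duct cells, rose in every treatment (0.74 ± 0.12, 0.95 ± 0.12 and 1.35 ± 0.12 in radiation, nab-paclitaxel and combination). The 6 did not move as one: 2 rose and 0 fell with radiation, and 4 rose and 1 fell both with nab-paclitaxel and in the combination. Over all tested genes 2.48% rose and 3.45% fell with radiation, 5.41% and 3.41% with nab-paclitaxel, and 12.2% and 10.6% in the combination. CDH1, which encodes E-cadherin, was the one of the 6 that fell (-0.29 ± 0.07, adjusted p = 0.0335, and -0.38 ± 0.07, adjusted p = 0.00377), and EPCAM passed in none of the comparisons. The part of these genes in the S100 results was not tested. Of 12 myeloid markers, which matter for S100A8 and S100A9, 0 averaged 1 FPKM over the libraries. The highest was CSF1R, at 1.04 FPKM in radiation 1 and lower in the other libraries, FCN1 was at 0, and the list had a summed level of 0.711 to 1.20 FPKM in control, 1.58 to 2.22 in irradiated cells, 1.04 to 1.11 with the drug and 1.30 to 1.74 with both. Of 11 squamous keratinocyte markers 1 did, KRT10, while IVL, KRT1, LOR and SPRR1B were at 0 in all libraries. The squamous list summed to 7.26 to 8.26 FPKM in control, 8.65 to 10.4 in irradiated cells, 8.42 to 16.2 with the drug and 11.1 to 13.1 with both. Of 8 fibroblast markers COL1A1 and ACTA2 did. The fibroblast list summed to 6.91 to 8.62, 8.92 to 9.87, 5.77 to 6.81 and 6.83 to 8.05 FPKM in the same order of groups. The part of these low lists in the S100 results was not tested.

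S100A6 had the highest FPKM of the members in each of the 12 libraries, at 1.77 to 3.63 times that of S100A11. Over the 12 libraries its mean was 278 FPKM, followed by S100A11 (108), S100A16 (65.1), S100A14 (48.4), S100A10 (41.4), S100A4 (25.7) and S100A2 (1.32). S100P (0.401), S100A9 (0.0493) and S100A8 (0) were below 1 FPKM and were not tested, which leaves 7 members in the tests. Along this order each of S100A6, S100A11, S100A16, S100A14 and S100A10 overlapped the next gene in range over the libraries, for example S100A14 at 30.9 to 66.0 FPKM and S100A10 at 28.2 to 50.6 FPKM. S100A4 (20.8 to 31.9) and S100A2 (0.681 to 1.79) did not overlap. By group means the order was the same in control, nab-paclitaxel and the combination, but in radiation S100A10 (42.9) stood above S100A14 (42.0). The 10 members together summed to 479 ± 92.4 FPKM in control, 450.3 ± 15.9 in irradiated cells, 667 ± 26.5 with the drug and 676 ± 105 with both. S100A6 made up 45.2 ± 3.71%, 48.2 ± 0.263%, 48.6 ± 3.25% and 51.7 ± 4.23% of that sum. In bulk samples such as these, fewer cells expressing a gene and less RNA per cell cannot be told apart.

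**Figure D1:**
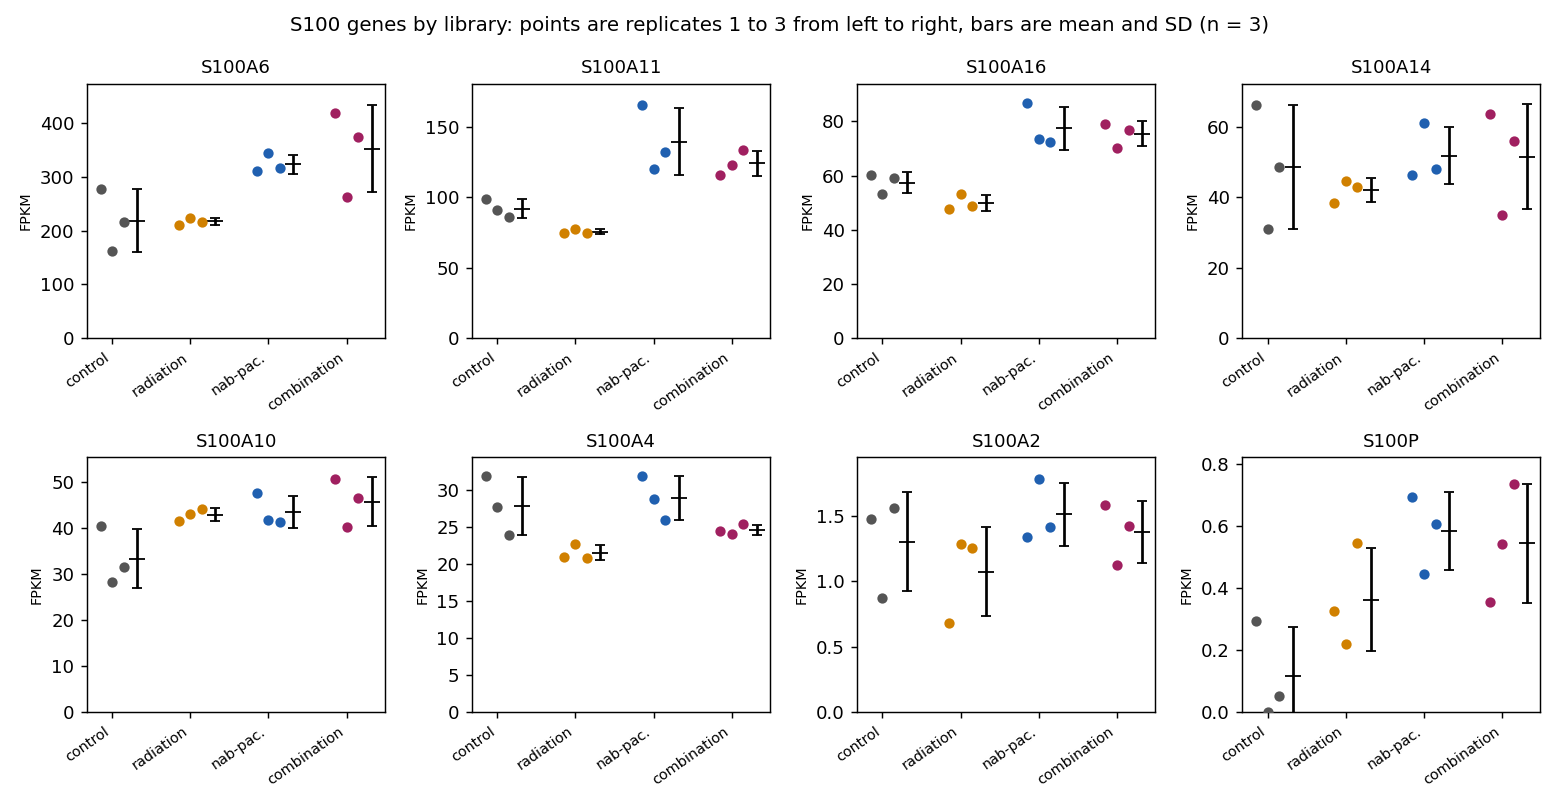
FPKM (linear axes starting at 0) of the 7 tested members and S100P in each of the 12 libraries, by treatment group; points are replicates 1 to 3 from left to right and the black bars are mean and SD (n = 3), with the lower SD bar of S100P in control running below the axis. S100A11 and S100A16 sit higher in the 6 libraries with nab-paclitaxel than in the 6 without it, while S100A14 is spread from 30.9 to 66.0 FPKM within control alone.

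S100A11, known as calgizzarin and a binding partner of annexin A1, measured 98.8, 91.1 and 85.7 FPKM in control replicates 1, 2 and 3. It measured 74.5, 77.5 and 74.6 after radiation, 166, 120.1 and 132 after nab-paclitaxel, and 116, 123 and 133 after both. All 6 libraries with drug lay above all 6 without it, and the 3 irradiated libraries without drug were the lowest. S100A11 rose with nab-paclitaxel alone by 1.52-fold in mean FPKM (0.59 ± 0.11, adjusted p = 0.0130). It rose in the combination by 1.35-fold against control (0.43 ± 0.11, adjusted p = 0.0187) and by 1.64-fold against radiation (0.71 ± 0.11, adjusted p = 0.00586). Radiation alone gave -0.28 ± 0.11 (95% interval -0.53 to -0.03), with no overlap with control but an adjusted p of 0.198. That difference passed without the 3 deviating libraries (-0.28 ± 0.08, adjusted p = 0.0422) and without nab-paclitaxel 1 alone (adjusted p = 0.0483). The combination against control no longer passed without control 3 (adjusted p = 0.0667) or combination 3 (adjusted p = 0.0789), and the drug effect did not pass in a fit of only the 2 groups compared (adjusted p = 0.141).

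S100A16, a broadly expressed member that binds calcium in only one of its loops, was at 60.2, 53.1 and 59.0 FPKM in control. Irradiated libraries held 47.6, 53.2 and 48.8, those with nab-paclitaxel 86.7, 73.5 and 72.5, and those of the combination 79.2, 70.4 and 76.9. As for S100A11, all 6 libraries with drug exceeded all 6 without, while radiation and control overlapped. The gene rose 1.35-fold with nab-paclitaxel (0.42 ± 0.09, adjusted p = 0.0206), 1.31-fold in the combination against control (0.39 ± 0.09, adjusted p = 0.0120) and 1.51-fold in the combination against radiation (0.59 ± 0.09, adjusted p = 0.00582). With radiation alone it gave -0.20 ± 0.09 (adjusted p = 0.270), which passed without the 3 deviating libraries (-0.25 ± 0.05, adjusted p = 0.0137). Against control the nab-paclitaxel call was lost under quantile normalization, where the change was 0.21 ± 0.08 (adjusted p = 0.131), in a fit of only these 2 groups (adjusted p = 0.172) and, narrowly, without control 3 (adjusted p = 0.0506). Both combination calls of S100A16 held in every alternative run.

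S100A6, or calcyclin, binds annexins and the ubiquitin ligase adaptor CACYBP. Its control libraries read 278, 161 and 216 FPKM. The other groups read 211, 224 and 217 with radiation, 310.4, 344 and 316 with nab-paclitaxel, and 419.8, 263 and 375 with both. Every nab-paclitaxel library lay above every control, but combination 2 fell below control 1, so those groups overlapped. S100A6 rose 1.61-fold in the combination against control (0.70 ± 0.19, adjusted p = 0.0233). Differences of similar size were fitted for nab-paclitaxel against control (1.48-fold, 0.60 ± 0.19, adjusted p = 0.0740) and for the combination against radiation (1.62-fold, 0.67 ± 0.19, adjusted p = 0.0570), neither past the threshold. Radiation alone gave 0.03 ± 0.19, with a 95% interval of -0.40 to 0.45. Control 2 and combination 2 held 65.2% and 66.2% of the mean of the other libraries in their groups. Without the 3 deviating libraries S100A6 passed for nab-paclitaxel against control (0.43 ± 0.11, adjusted p = 0.0425) and for the combination against radiation (0.87 ± 0.10, adjusted p = 0.00134). Both also passed with voom on recovered fragments (adjusted p = 0.0476 and 0.0318), without control 1 (0.0379 and 0.0393) and without combination 2 (0.0459 and 0.0254). The combination against radiation passed without control 2 (0.0238) or nab-paclitaxel 1 (0.0499), with a minimum mean of 5 FPKM (0.0425) and with only these 2 groups (0.0288). The combination against control lost its call without control 2 (adjusted p = 0.0647), control 3 (0.0548), combination 1 (0.0918) or combination 3 (0.0827). It also did so without the filter (0.0798), with TPM scaling (0.0632) and with only these 2 groups (0.0892). S100A6 shares 23 exonic bases (2.37% of its exonic length) with the antisense gene BX470102.1, whose mean was 0.717 FPKM.

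S100A10, the light chain that joins with annexin A2 at the plasma membrane and differs from its relatives in not needing calcium to do so, stood at 40.5, 28.2 and 31.4 FPKM in control. It stood at 41.5, 43.0 and 44.2 after radiation, 47.5, 41.6 and 41.3 after nab-paclitaxel, and 50.6, 40.2 and 46.4 after both. Radiation and nab-paclitaxel each lay wholly above control, and the 3 treated groups overlapped each other. The rise in the combination passed (1.37-fold, 0.45 ± 0.13, adjusted p = 0.0250), although combination 2 was slightly below control 1. Radiation alone (0.37 ± 0.13, adjusted p = 0.124) and nab-paclitaxel alone (0.39 ± 0.13, adjusted p = 0.0800) did not pass, and both passed without control 1 (0.51 ± 0.11, adjusted p = 0.0356, and 0.53 ± 0.11, adjusted p = 0.0287). The combination call was lost without control 2 (adjusted p = 0.0706), control 3 (0.0763), combination 1 (0.0956) or combination 3 (0.0779), and without the filter (0.0662), with TPM scaling (0.0643), under quantile normalization (0.0559) or with only these 2 groups (0.0865). Adding the drug to radiation moved S100A10 by 0.08 ± 0.13, with a 95% interval of -0.20 to 0.37. The interaction, which asks whether the combined effect departs from the sum of the separate effects, was -0.30 ± 0.18 (unadjusted p = 0.123) for S100A10 and 0.16 ± 0.13 (unadjusted p = 0.239) for S100A16.

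S100A4, which binds non-muscle myosin heavy chain and is known for its link to cell motility and metastasis, read 31.8, 27.7 and 23.9 FPKM in control. It read 20.9, 22.7 and 20.8 after radiation, 31.9, 28.7 and 25.9 after nab-paclitaxel, and 24.4, 24.0 and 25.3 after both. Irradiated libraries lay below all controls, and the combination lay below all libraries with drug alone. Radiation gave -0.35 ± 0.11 (adjusted p = 0.0800), and the combination against nab-paclitaxel gave -0.22 ± 0.11 (adjusted p = 0.322). The radiation difference passed when control 3 (-0.45 ± 0.10, adjusted p = 0.0384) or the first drug library (nab-paclitaxel 1, adjusted p = 0.0482) was left out. With nab-paclitaxel alone the change was 0.06 ± 0.11, with a 95% interval of -0.18 to 0.29, so a rise as large as the 0.59 fitted for S100A11 lies outside it. A direct test between the genes was not run.

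S100A14, an epithelial member, varied more within groups than between them. It measured 66.0, 30.9 and 48.7 FPKM in control, 38.3, 44.7 and 43.0 after radiation, 46.4, 61.0 and 47.9 after nab-paclitaxel, and 63.6, 34.8 and 56.0 after both. Control and the combination overlapped every other group, but the irradiated libraries (up to 44.7) all lay below those with nab-paclitaxel alone (from 46.4). That pair of groups was not compared directly. None of the comparisons made passed (moderated F over the groups, adjusted p = 0.781), and the 95% interval for the combination against control ran from -0.47 to 0.68. Without the 3 deviating libraries it passed for the combination against radiation (0.50 ± 0.15, adjusted p = 0.0344). S100A2, known as a p53-binding member of squamous and basal epithelia, was near the filter at 0.681 to 1.79 FPKM (18 to 49 fragments) and passed in no comparison. Its largest fitted difference was 0.21 ± 0.16 for the combination against radiation (adjusted p = 0.460).

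S100P, S100A9 and S100A8, the members best known as secreted ligands, were barely detected. S100P, a ligand of RAGE that is raised in many bile duct and pancreatic tumours, had 6, 0 and 1 fragments in control, 7, 5 and 12 after radiation, 14, 10 and 14 after nab-paclitaxel, and 8, 11 and 16 after both. Every library with drug had more S100P fragments than every control library, while radiation overlapped control. When genes under 1 FPKM were kept in the fit (38818 genes), S100P gave 0.51 ± 0.14 for nab-paclitaxel (adjusted p = 0.114) and 0.47 ± 0.14 for the combination (adjusted p = 0.0831), neither past the threshold. S100A9 had 3 fragments in combination 1, 1 fragment each in combination 3 and nab-paclitaxel 2 and 3, and 0 elsewhere. S100A8 had 0 fragments in all 12 libraries, which allows up to 0.166 to 0.197 FPKM per library (3 fragments, counting error only). AGER, which encodes the receptor RAGE, averaged 0.870 FPKM and TLR4 0.00110 FPKM.

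Radiation alone called none of the tested members. Of the 7 members 0 rose and 0 fell against 5.93% of the 13609 genes called in either direction by limma, and voom on recovered fragments also called 0. Without adjustment 3 members had p under 0.05: S100A4 (0.00691), S100A10 (0.0142) and S100A11 (0.0314). These 3 did not move together, since S100A4 and S100A11 were lower and S100A10 higher. The median over the 7 members was -0.15 on the log2 scale, and -0.02 over all genes tested. The member count was 1 without control 1 (S100A10) or control 3 (S100A4), and 2 without nab-paclitaxel 1 (S100A4 and S100A11) or without the 3 deviating libraries (S100A11 and S100A16).

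Nab-paclitaxel alone raised S100A11 and S100A16. That was 2 of 7 members higher and 0 lower, where 5.41% of all tested genes were higher and 8.82% were called in either direction. All 7 fitted changes were positive, although S100A4 (-0.095) and S100A14 (-0.017) turned negative under quantile normalization. The median was 0.39, and 0.04 over all genes tested. The other 5 did not pass. The count was 1 under quantile normalization (S100A11), 0 with only these 2 groups, 1 without control 3 (S100A11) and 4 without control 1 (S100A6, S100A10, S100A11 and S100A16).

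The combination raised S100A6, S100A10, S100A11 and S100A16 against control. These were 4 of 7 members, with 0 lower, where 12.2% of all tested genes were higher and 22.9% were called in either direction. The member median was 0.39, and 0.00 over all genes tested. S100A16 alone kept its call in every alternative. Only S100A11 and S100A16 passed without the filter, with TPM scaling, with only these 2 groups, without control 2 and without combination 1, and S100A16 alone passed without control 3 or combination 3.

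Adding nab-paclitaxel to radiation raised S100A11 and S100A16. That was 2 of 7 members higher and 0 lower, where 4.81% of all tested genes were higher and 7.75% were called in either direction. The median was 0.25, and 0.03 over all genes. Both calls held in every alternative, with adjusted p of 0.000799 to 0.0362 for S100A11 and 0.000386 to 0.0364 for S100A16. Without the 3 deviating libraries the count was 4, with S100A6 and S100A14 added. This comparison shares the combination libraries with the preceding one, and the comparisons with control share the control libraries.

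Adding radiation to nab-paclitaxel called 0 of 7 members, where 3.92% of all tested genes were called. No member had an unadjusted p under 0.05 and voom also called 0. The 95% intervals were -0.40 to 0.09 for S100A11, -0.24 to 0.17 for S100A16, -0.32 to 0.52 for S100A6 and -0.21 to 0.35 for S100A10. The interaction called 0 of 7 members and 0% of all genes, with 443 genes and 0 members at an unadjusted p under 0.05, and voom called 0. Across the 4 groups the moderated F test called S100A11 (adjusted p = 0.00120), S100A16 (0.00171), S100A6 (0.0284) and S100A4 (0.0461), which is 4 of 7 members where 25.3% of all genes were called. S100A10 (0.0614) did not pass, and with the replicate block it passed in place of S100A4. S100A11 and S100A16 were the only members left without the filter, with TPM scaling and under quantile normalization. The same held without radiation 1, 2 or 3, nab-paclitaxel 2, combination 1 or combination 3.

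**Figure D2:**
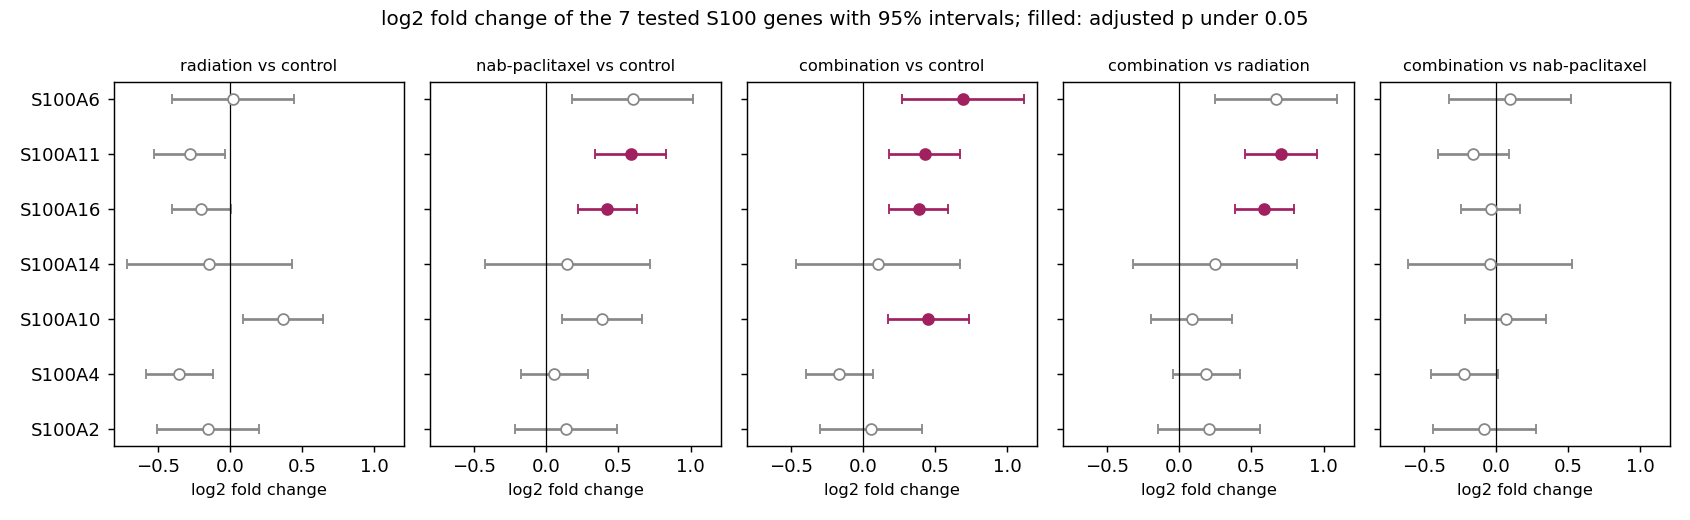
log2 fold changes of the 7 tested members in 5 comparisons, on log2(FPKM + 1); points are limma estimates, bars are 95% intervals, and filled points have an adjusted p under 0.05. S100A11 and S100A16 are filled in all 3 panels that add the drug (to untreated cells, in the combination against control, and on top of radiation), S100A6 and S100A10 are filled in the combination against control, and no member is filled in the panels that add radiation alone or radiation on top of the drug.

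The annexins and other intracellular partners are the proteins through which S100 proteins act inside the cell, and 13 of their genes were tested. With radiation 0 rose and 1 fell. With nab-paclitaxel 3 rose and 0 fell, in the combination against control 2 rose and 1 fell, and in the combination against radiation 2 rose and 0 fell. Beside these stand 5.93%, 8.82%, 22.9% and 7.75% of all genes called in either direction, so 3 of 13 in the combination against control is close to the share over all genes. The medians of the partner genes were -0.01, 0.13, 0.22 and 0.16, and those over all genes -0.02, 0.04, 0.00 and 0.03. ANXA2, whose protein forms a heterotetramer with S100A10, measured 91.7, 84.3 and 82.5 FPKM in control. It measured 106, 106 and 107 after radiation, 155, 125 and 122 after nab-paclitaxel, and 162, 148 and 162 after both. Each treated group lay above control, and the drug-treated groups lay above radiation. ANXA2 rose with nab-paclitaxel (0.62 ± 0.10, adjusted p = 0.00583), in the combination against control (0.86 ± 0.10, adjusted p = 2.07e-04) and in the combination against radiation (0.56 ± 0.10, adjusted p = 0.00801), and radiation alone gave 0.30 ± 0.10 (adjusted p = 0.0969). The ratio of ANXA2 to S100A10 in FPKM was 2.63 ± 0.364 in control, 2.48 ± 0.0724 after radiation, 3.07 ± 0.164 after nab-paclitaxel and 3.45 ± 0.243 after both. The gene lengths behind it were 8824 and 1543 bases. Its size is thus not a ratio of transcripts or proteins, and only its change between groups can be read. That change was not tested. Control (2.27 to 2.99) overlapped radiation (2.42 to 2.56) and nab-paclitaxel (2.96 to 3.26), while the combination (3.19 to 3.67) lay above control.

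ANXA1, which binds S100A11, was low in both groups that received radiation. Its values were 61.6, 76.6 and 54.3 FPKM in control, 37.0, 37.0 and 40.5 after radiation, 84.8, 55.0 and 57.6 after nab-paclitaxel, and 40.6, 48.1 and 40.1 after both. Both irradiated groups lay below both groups without radiation. ANXA1 fell with radiation (-0.72 ± 0.16, adjusted p = 0.0256) and in the combination against control (-0.56 ± 0.16, adjusted p = 0.0304), while nab-paclitaxel alone gave 0.02 ± 0.16. EZR, the membrane-cytoskeleton linker ezrin, rose with nab-paclitaxel (0.38 ± 0.09, adjusted p = 0.0236) and in the combination (0.41 ± 0.09, adjusted p = 0.00695), and ANXA5 rose with nab-paclitaxel (0.31 ± 0.08, adjusted p = 0.0419). IQGAP1, named after its values were seen, rose in the combination against radiation (0.32 ± 0.09, adjusted p = 0.0476). Among 7 genes of cell surface proteins that bind secreted S100 proteins 4 were tested. MCAM, which can bind S100A8 and S100A9, rose with radiation from 11.7 ± 1.41 to 17.3 ± 0.976 FPKM (0.52 ± 0.11, adjusted p = 0.0210), and 0 of the 4 passed in the other comparisons. Over all tested genes 5.93% were called with radiation, 8.82% with nab-paclitaxel and 22.9% in the combination against control. The combination called 7.75% against radiation and 3.92% against nab-paclitaxel.

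**Figure D3:**
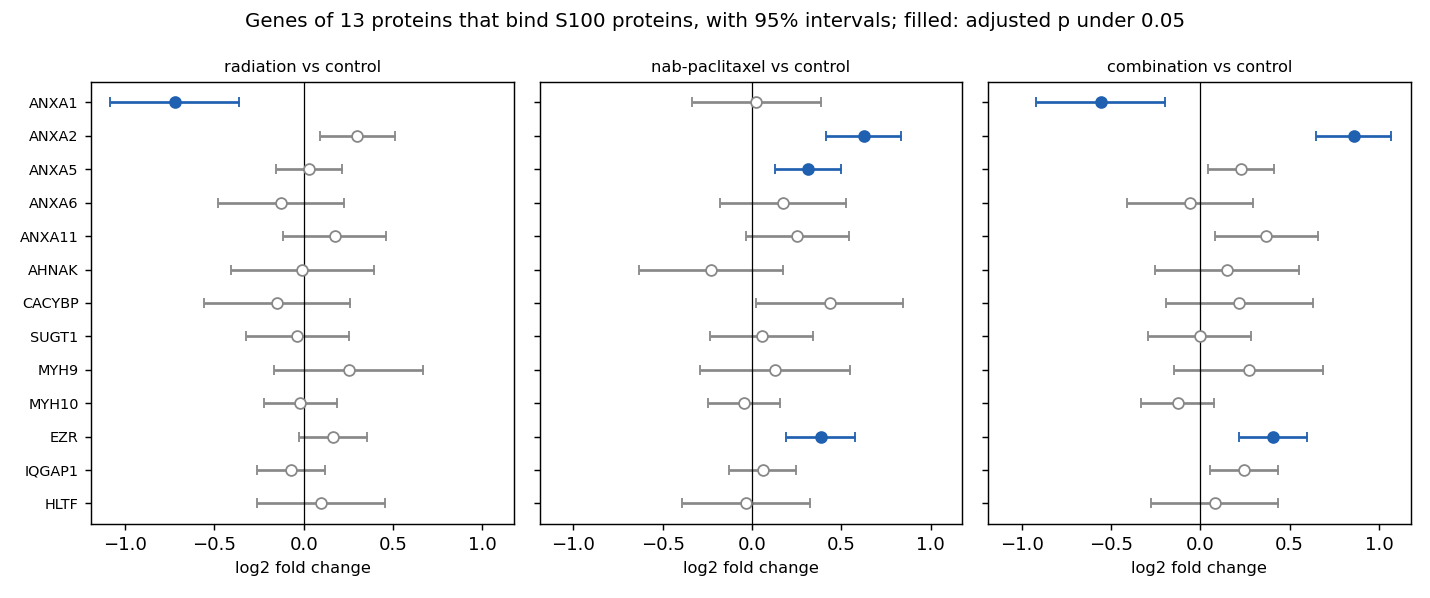
log2 fold changes on log2(FPKM + 1) of 13 genes of intracellular S100 partners in the 3 comparisons with control; bars are 95% intervals and filled points have an adjusted p under 0.05. ANXA2 and EZR are raised with nab-paclitaxel and in the combination, ANXA5 is filled with nab-paclitaxel (in the combination 0.23, adjusted p = 0.0737), and ANXA1 is lowered in both comparisons that include radiation.

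Of 10 further S100 genes outside the 10 members only S100A3 and S100A13 were tested. S100A13, which takes part in the release of fibroblast growth factor by a non-classical route, was at 4.90, 3.61 and 4.63 FPKM in control. It was at 4.92, 5.30 and 4.82 after radiation, 6.48, 6.34 and 5.87 after nab-paclitaxel, and 10.03, 6.39 and 7.49 after both. All drug-treated libraries lay above all others, and combination 1 was the highest. S100A13 rose in the combination against control (0.73 ± 0.14, adjusted p = 0.00363) and against radiation (0.56 ± 0.14, adjusted p = 0.0329), and gave 0.43 ± 0.14 with nab-paclitaxel alone (adjusted p = 0.0696). The first call held in every alternative. The second was lost without radiation 1 (adjusted p = 0.113), 2 (0.0847) or 3 (0.111), combination 1 (0.0949) or combination 3 (0.0902), without the filter (0.0865) and with TPM scaling (0.103). For S100A13, nab-paclitaxel alone passed without combination 1 (0.0382) or combination 2 (0.0486), and the combination against nab-paclitaxel passed without the 3 deviating libraries (0.45 ± 0.11, adjusted p = 0.0474). S100A13 overlaps AL162258.1 on its own strand (24.2% of its exonic bases) and S100A1 on the other (10.6%), with means of 0.0502 and 0.191 FPKM for those genes. S100A3 did not pass, and none of the 7 S100 fused-type genes, such as filaggrin (FLG), reached the filter, so they were not tested. The highest of the 7 was HRNR (0.205 FPKM), with 8, 10 and 14 fragments in control and 68, 62 and 72 after radiation. It had 3, 9 and 22 fragments after nab-paclitaxel and 49, 43 and 43 after both.

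Calcium-binding proteins with EF hands outside the S100 family also included genes that rose. Of 14 tested genes 1 rose with radiation, 4 with nab-paclitaxel, 4 in the combination against control and 5 in the combination against radiation, and 0 fell. Over all tested genes 2.48%, 5.41%, 12.2% and 4.81% rose. The medians of the 14 genes were -0.01, 0.21, 0.20 and 0.24, against -0.02, 0.04, 0.00 and 0.03 over all genes. CAPN2, the large subunit of m-calpain, a calcium-dependent protease, rose in all 4 (0.27 ± 0.07, 0.44 ± 0.07, 0.67 ± 0.07 and 0.40 ± 0.07). EFHD2, an actin-binding protein, went from 17.8 ± 2.13 FPKM in control to 29.6 ± 3.01 with nab-paclitaxel and 35.3 ± 4.96 in the combination (0.70 ± 0.12 and 0.94 ± 0.12, adjusted p = 0.00797 and 3.76e-04). CAPN1 rose with nab-paclitaxel (0.32 ± 0.09), as did the calpain small subunit CAPNS1 (0.30 ± 0.09).

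Position on chromosome 1 was described with 16 other genes near the S100 cluster, of which 14 were tested. With radiation 1 rose, with nab-paclitaxel 2 rose and 1 fell, in the combination against control 1 rose and 2 fell, and in the combination against radiation 1 rose. The counts for radiation, the combination against control and the combination against radiation are near the 5.93%, 22.9% and 7.75% called over all genes. That for nab-paclitaxel stands beside 8.82%. Medians of the neighbours were -0.05, 0.02, 0.00 and 0.06. ILF2, an RNA-binding factor, rose with nab-paclitaxel (0.43 ± 0.09, adjusted p = 0.0141) and in the combination against radiation (0.41 ± 0.09, adjusted p = 0.0172). TUFT1 rose in all comparisons with control (0.38 ± 0.09, 0.31 ± 0.09 and 0.44 ± 0.09 for radiation, nab-paclitaxel and combination). INTS3, a subunit of the Integrator complex, fell with nab-paclitaxel (-0.42 ± 0.08) and in the combination (-0.35 ± 0.08).

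Genes with the most similar profiles were taken for the 3 members with the smallest F test p, by Pearson r of log2(FPKM + 1) over the 12 libraries. For S100A11 they were VDAC1, a channel of the outer mitochondrial membrane (r = 0.99), PSME1, a proteasome activator subunit (0.98), and the alpha-tubulin TUBA1C (0.97). For S100A16 they were the urokinase receptor PLAUR (0.99), the respiratory chain subunit NDUFA6 (0.98) and the chloride channel protein CLIC1 (0.97). For S100A6 they were SAE1, a subunit of the SUMO-activating enzyme (0.98), TRIP10 (0.97) and the cytochrome oxidase subunit COX5B (0.97). These are the highest of 13609 genes, share libraries and group differences, and carry no p. PLAUR itself went from 5.13 ± 0.637 FPKM in control to 4.32 ± 0.260 after radiation, 9.18 ± 1.41 after nab-paclitaxel and 8.38 ± 0.942 after both.

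Spread within groups differed between the members. S100A6, S100A14 and S100A2 were lowest in all 3 deviating libraries within their groups. S100A14 stood in control 2 at 53.8% and in combination 2 at 58.3% of the mean of the other libraries of the group, whereas S100A11 stood at 98.7% and 99.0%. In nab-paclitaxel 1 the members parted, with S100A11 at 131% and S100A16 at 119% of the others but S100A14 at 85.1% and S100A6 at 94.1%. The ratio of S100A6 to S100A11 accordingly ran from 1.77 (control 2) to 3.63 (combination 1). The coefficient of variation of S100A6 was 26.7% in control and 22.9% in the combination, against 3.00% in radiation and 5.47% in nab-paclitaxel. The medians over all tested genes in the same groups were 14.9%, 10.9%, 6.11% and 14.3%.

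**Figure D4:**
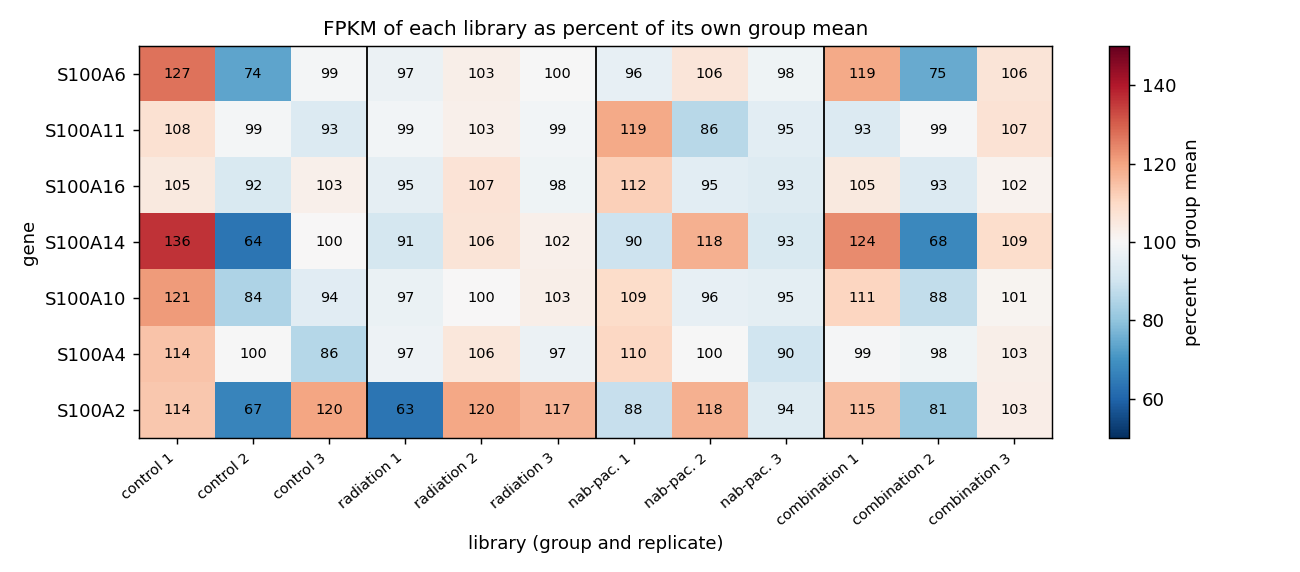
FPKM of each tested member in each library as a percent of its own group mean, with colour from blue (below the mean) to red (above) and the rounded percent printed in each cell; vertical lines separate the groups. Control 2 and combination 2 are low for S100A6, S100A14 and S100A2 (64% to 81%) and near 100% for S100A11, and the 3 radiation libraries stay between 91% and 107% for every member but S100A2.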

How the data were processed

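Values were deposited as FPKM, per the file headers, in a single table of 58735 genes with gene lengths and 12 sample columns. Per the submitters' processing notes the genome was hg38, and per the labels' protocols libraries came from a SMARTer mRNA-seq kit. Which aligner and counter were used, and whether strand was, is not given in the sources used here, so overlapping and antisense genes are uncertain. FPKM times gene length was a whole multiple of 1 step per library for 100% of values (within 0.05), which gave fragment numbers. The deposited FPKM divide by a median-of-ratios size factor times the geometric mean of the totals (100% of it in every library), which was 92.2% to 106% of a library's own total.

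The test was limma 3.58.1 in R 4.3.3 with a mean-variance trend on log2(FPKM + 1), over genes averaging 1 FPKM or more, all 4 groups in 1 fit (8 residual and 3.39 prior degrees of freedom), two-sided, Benjamini-Hochberg over the 13609 tested genes per contrast, threshold 0.05. The member rule uses gene symbols alone, but the symbols, gene lists and alternatives were chosen with earlier results of these data known. No replicate block was used. Same-numbered control and combination libraries deviated together (r = 0.23, 0.54 and 0.17), the other pairs of groups did not in all 3 numbers, and the labels give no shared batch. Control 3 with combination 1 (r = 0.29) and control 1 with combination 3 (r = 0.22) did so too. Control 2 or combination 2 with a differently numbered library of the other group gave r of -0.38 to -0.28. Pairing by number is therefore not shown. Named genes were all members, from each other list at most 4 called genes, by smallest F test p (otherwise the 2 most expressed, some of which are left out for length), and 3 similar genes for each of 3 members. Other settings tried were no filter or a minimum mean of 5 FPKM, a pseudocount of 0.1, quantile normalization, TPM scaling, voom on recovered fragments, a replicate block, only the 2 groups compared and leaving out each library. Leaving out the 3 deviating libraries together was chosen after seeing the data. Figures used matplotlib 3.10.9. The value of 1 marker gene is not reported here.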

Additional observations from a re-analysis of the deposited data

How the results depend on the processing

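Counts of members called depended on the settings as follows. Leaving out 1 library at a time gave 0 to 2 members for radiation against control, 1 to 4 for nab-paclitaxel against control, 1 to 4 for the combination against control, 2 to 3 for the combination against radiation and 2 to 5 across the 4 groups, and 0 for the combination against nab-paclitaxel and for the interaction. The count for nab-paclitaxel was 1 under quantile normalization and 0 with only the 2 groups compared, where 8 genes were called in all. For the combination against control it was 2 without the filter, 2 with TPM scaling and 2 with only these groups, and across the 4 groups it was 2 without the filter, 2 with TPM scaling and 2 under quantile normalization. Without control 2, nab-paclitaxel 1 and combination 2 it was 2 for radiation against control and 4 for the combination against radiation, and the cause was not tested. Calls over all genes ran from 320 to 2945 for radiation, 8 to 1834 for nab-paclitaxel, 1953 to 5038 for the combination against control, 215 to 4116 against radiation and 93 to 1292 against nab-paclitaxel, against 807, 1200, 3111, 1055 and 533. The interaction called at most 5 genes (without the filter) and 0 members. Quantile normalization moved the share of called genes that were higher from 61.3% to 48.3% for nab-paclitaxel, from 62.0% to 52.1% for the combination against radiation and from 31.0% to 41.8% against nab-paclitaxel.

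With the replicate block, the numbers of members called were 0, 2, 4, 2, 0 and 0 for radiation, nab-paclitaxel and combination against control, combination against radiation and against nab-paclitaxel, and the interaction, and 4 across the groups, where S100A10 took the place of S100A4. Over all genes the block gave 531, 701, 2660, 606 and 306 calls in the 5 comparisons and 0 for the interaction. Of 18 same-numbered pairs of deviations 5 correlated above 0.1 (r from -0.49 to 0.54), among them all 3 pairs of control and combination, where the block left the 4 called members the same. Control 3 with combination 1 and control 1 with combination 3 also correlated above 0.1, so pairing by number is not shown. The block changed no other call of a member.

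Direction changed only for differences that passed no threshold in the main analysis. When single libraries were left out, S100A6 ranged from -0.18 to 0.22 and S100A14 from -0.43 to 0.11 for radiation against control. For nab-paclitaxel against control S100A2 ranged from -0.0087 to 0.22, S100A4 from -0.045 to 0.15 and S100A14 from -0.14 to 0.40. For the combination against control S100A2 ranged from -0.088 to 0.14 and S100A14 from -0.18 to 0.36. For the combination against nab-paclitaxel S100A6 ranged from -0.041 to 0.29, S100A10 from -0.0068 to 0.16, S100A14 from -0.21 to 0.21 and S100A16 from -0.080 to 0.047. Quantile normalization turned S100A4 (-0.095) and S100A14 (-0.017) for nab-paclitaxel against control, S100A10 (-0.086) for the combination against radiation, and S100A14 (0.044) and S100A16 (0.11) for the combination against nab-paclitaxel. Without the 3 deviating libraries S100A6 gave -0.18 for radiation, S100A4 -0.013 and S100A14 -0.068 for nab-paclitaxel, S100A2 -0.0088 for the combination against control, and S100A14 0.14 and S100A16 0.10 for the combination against nab-paclitaxel. S100A2, S100A9 and S100P rest on at most 49 fragments in a library, which limits what their values can show.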
